A study of Mus musculus with 20 samples.

Results

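Txnip, its relatives Arrdc1, Arrdc2, Arrdc3 and Arrdc4, and the transcription factors Mlx and Mlxip were followed in bone marrow-derived macrophages (BMDM) exposed to glucose or to macrophage exosomes. The members were taken by gene symbol, after the Ensembl identifiers of the count table were paired with symbols, and all 7 were found among the 14456 genes listed. The study asked how high glucose changes macrophages and whether their exosomes carry that change to other macrophages. Whole transcriptome RNA-seq was run on 20 libraries in 5 groups of 4. In the first experiment, BMDM were held in 25 mM glucose (high glucose) or in 5.5 mM glucose with 19.5 mM mannitol as an osmotic control (normal glucose). In the second, naive BMDM received PBS, exosomes collected from normal glucose BMDM (BMDM-NG-exo) or exosomes collected from high glucose BMDM (BMDM-HG-exo). Per the study's methods, the marrow came from male wild type C57BL/6J mice, 8 weeks old in one passage and up to 12 weeks old in another. It was differentiated for 6 days with M-CSF and exposed for 24 h. The cells of all groups were cultured cells without any genetic change. The labels name no animal, so the spread between libraries may be technical in part.

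Txnip and the Arrdc proteins are alpha-arrestins, adaptors that bring membrane proteins such as glucose transporters and receptors to ubiquitin ligases of the NEDD4 family and so to endocytosis. Txnip also binds thioredoxin and is known to restrain glucose uptake. Mlxip, better known as MondoA, pairs with Mlx, is held in the cytoplasm and at mitochondria, and moves to the nucleus when glucose 6-phosphate accumulates, where the pair binds carbohydrate response elements. Txnip and Arrdc4 are textbook targets of that pair, and the related partner Mlxipl (ChREBP) is best known from liver. Mlxipl and Arrdc5 were not analysed here.

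A carbohydrate response element is made of E-box-like motifs, CACGNG, with 5 bases between them. The promoters of the members whose transcript changed in high glucose are shown first, because a CACGNG pair with that spacing lies close to the start of Txnip. No such pair was found in the windows searched for the others. Elements written with other letters or lying farther away could have been missed. Each is the 250 bases before the RefSeq start site (build GRCm38.p6), 5′ to 3′ on the strand of the gene, and capitals mark CACGNG on either strand, with the spacer of the Txnip element also in capitals. Txnip was taken from chr3:96557707-96557956 on the plus strand, Arrdc4 from chr7:68749239-68749488 on the minus strand and Arrdc3 from chr13:80883134-80883383 on the plus strand.
Txnip: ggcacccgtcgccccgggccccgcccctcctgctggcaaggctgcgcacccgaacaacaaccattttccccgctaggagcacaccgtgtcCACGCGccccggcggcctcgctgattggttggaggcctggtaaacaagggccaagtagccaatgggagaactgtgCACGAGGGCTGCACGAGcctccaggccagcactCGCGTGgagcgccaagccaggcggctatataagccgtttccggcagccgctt
Arrdc4: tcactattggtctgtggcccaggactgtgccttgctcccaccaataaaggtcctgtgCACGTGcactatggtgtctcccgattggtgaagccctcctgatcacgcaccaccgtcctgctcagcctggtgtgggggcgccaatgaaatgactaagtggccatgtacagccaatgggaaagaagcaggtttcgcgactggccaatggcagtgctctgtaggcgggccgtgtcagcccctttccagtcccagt
Arrdc3: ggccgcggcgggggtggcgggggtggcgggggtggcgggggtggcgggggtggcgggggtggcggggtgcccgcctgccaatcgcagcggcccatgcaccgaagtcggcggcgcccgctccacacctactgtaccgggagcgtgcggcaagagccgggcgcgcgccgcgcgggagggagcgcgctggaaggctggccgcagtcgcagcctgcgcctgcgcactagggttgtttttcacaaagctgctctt

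All 7 members were matched by symbol in the RefSeq promoter table, Arrdc3 with 3 start sites. The windows searched ran from 250 bases before to 50 bases after the start. In Txnip, the paired element lay at -85 to -69, counted so that -1 is the last base before the start, and single CACGNG motifs lay at -160 and, on the other strand, at -52. Among all 32851 promoter windows, 16 (0.0487%) held CACGNG followed after 5 bases by another CACGNG in the same orientation. In the Arrdc4 window no such pair was found, but a palindromic E-box, CACGTG, lay at -193 to -188. Mlx itself held a CACGTG at -40 to -35. CACGTG occurred in 7.15% of all windows, and CACGNG, which includes CACGTG, in 27.5%. Arrdc1 held CACGNG at -158 and -118, and Arrdc2 at -77, each on the other strand. Neither the Arrdc3 windows nor the Mlxip window held any of these letters. These are matches of letters, not measured binding. The 16 windows belonged to 15 genes, of which 10 were listed and tested. In high against normal glucose, 1 of those 10 was higher (Txnip), beside 7.74% of all genes tested. The 2 that were lower (Man2b2 and Fem1b, named after their values were seen) stood beside 5.53%. The median log2 fold change of the 10 was -0.05. With CNCGNG allowed as the second motif, 120 windows (0.365%) matched. Of the 79 genes tested from these, 7 were higher and 6 lower, with a median of -0.03.

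**Figure D1:**
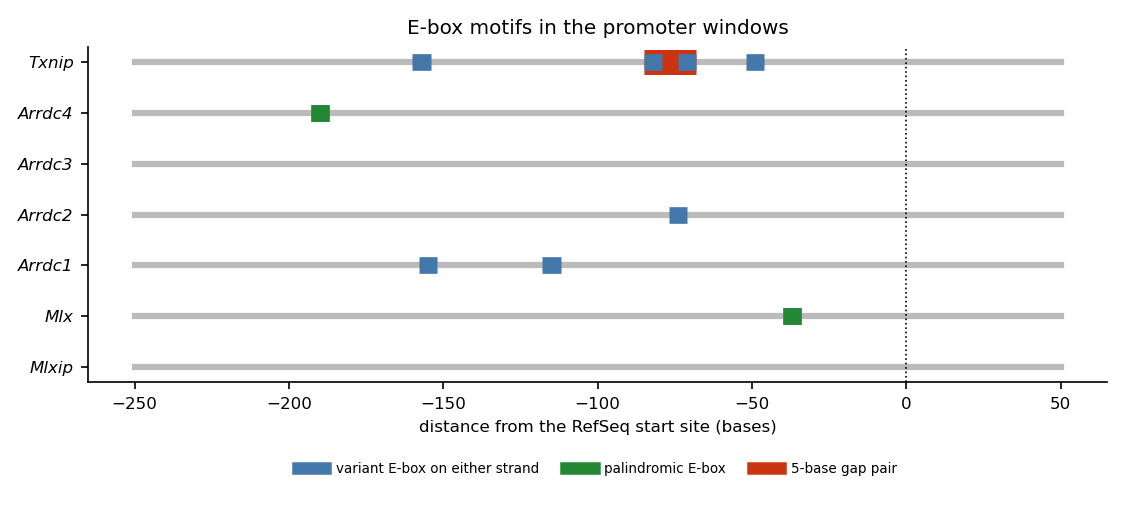
E-box motifs in the promoter windows of the 7 genes, drawn by distance from the RefSeq start site in bases (grey lines, 250 bases before to 50 after). Blue marks a single CACGNG, green a palindromic CACGTG and red the paired element with 5 bases between its motifs, which lay at -85 to -69 in Txnip and in none of the other members.

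Library depth ranged from 34016445 to 56310712 reads assigned to genes, with a median of 43311931, and each member was covered by 626 to 29990 reads in each library. Median depth by group ran from 36622308 (PBS) to 47923964 (BMDM-NG-exo). A single small RNA gene, Gm23935, took 8.78 to 15.2% of the reads. No pair of replicates was closer than sampling noise. All 7 macrophage markers checked (Adgre1, Csf1r, Cd68, Itgam, Mertk, Fcgr1 and Lyz2) were listed. Of the neutrophil markers 3 of 5 were listed, with summed normalized counts of 65.2 to 145 per library, and the 4 stromal markers summed to 88.6 to 355. None of the lymphocyte or dendritic cell markers had a row.

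Txnip was by far the most abundant member. Per kilobase of exon and averaged over the 20 libraries, Txnip reached 7131 normalized counts, and only 137 of the genes with a known length had a higher level on that scale. Arrdc1 (582), Arrdc3 (569), Mlxip (462) and Mlx (452) formed a middle range on the same per-kilobase scale, and Arrdc2 (243) and Arrdc4 (241) were the lowest. All further values are normalized counts without a length correction.

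Direct exposure to high glucose raised Txnip and Arrdc4 and lowered Arrdc3, whereas Arrdc1, Arrdc2, Mlx and Mlxip did not pass the test. Of the 7 members, 3 were called at an adjusted p below 0.05 (limma, Benjamini-Hochberg over all genes tested), against 13.3% of the 14425 genes tested. The 2 that were higher stand beside 7.74% of all genes, and the 1 that was lower beside 5.53%. With quantile normalization in place of the deposited size factors, all genes split into 789 higher and 872 lower rather than 1116 and 798, and the 3 members were called in the same directions. The normal and high glucose libraries did not overlap for the same 3 members, beside 16.3% of all genes. In bulk RNA, a smaller number of cells of a type and less RNA per cell cannot be told apart.

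Txnip, the thioredoxin-binding arrestin, lies at chr3:96557957-96561883 on the plus strand. Its normalized counts were 22473, 23008, 24439 and 23778 in the normal glucose libraries and 28029, 28138, 28195 and 26856 in the high glucose libraries. The lowest high glucose library thus stood above the highest normal glucose library. The group means were 23425 ± 863 and 27804 ± 636 (SD, n = 4 each), a log2 fold change of 0.25 (SE 0.033, limma adjusted p = 9.57e-07), or a rise of 18.7%. The antisense gene Gm15441, on the opposite strand of the same locus, averaged 208 normalized counts and did not pass the test (log2 fold change 0.36, SE 0.16, limma adjusted p = 0.145). Counting used the strand of the reads, per the study's methods.

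Arrdc4, the closest relative of Txnip in the family and like it a known target of Mlxip and Mlx, lies at chr7:68736995-68749241 on the minus strand. Its normalized counts were 957, 861, 845 and 869 at normal and 1352, 1321, 1336 and 1335 at high glucose. The high glucose libraries lay close together and all above the normal glucose libraries. The means were 883 ± 50.5 and 1336 ± 13 (SD, n = 4 each), a log2 fold change of 0.60 (SE 0.066, limma adjusted p = 1.91e-08), or 1.51-fold.

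Arrdc3, an arrestin that takes part in the trafficking of adrenergic receptors and in metabolic control of fat tissue, went the other way. It lies at chr13:80883384-80896042 on the plus strand. Its normalized counts were 3924, 4689, 4467 and 4640 at normal and 3018, 3053, 2704 and 2761 at high glucose. Even the normal glucose library with the lowest value exceeded every high glucose library. The means were 4430 ± 350 and 2884 ± 177 (SD, n = 4 each), a log2 fold change of -0.62 (SE 0.053, limma adjusted p = 5.68e-11), or a fall to 0.652 of the normal glucose level.

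Arrdc2, a less studied arrestin at chr8:70835129-70839720 on the minus strand, missed the threshold. Its normalized counts were 900, 770, 853 and 785 at normal and 701, 667, 779 and 681 at high glucose, so that 1 high glucose library fell among the normal glucose libraries. The log2 fold change was -0.23 (SE 0.080, limma adjusted p = 0.0564). The gene was called by DESeq2 (adjusted p = 0.0366), and with limma when normal glucose replicate 3 (adjusted p = 0.037) or high glucose replicate 4 (adjusted p = 0.0361) was left out. Over the other alternatives and left-out libraries the adjusted p reached 0.159.

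Arrdc1, which recruits the ESCRT machinery to the plasma membrane and drives the budding of small vesicles there, lies at chr2:24925352-24935252 on the minus strand. It was 1375, 1193, 1453 and 1396 at normal and 1371, 1272, 1443 and 1456 at high glucose, in overlapping ranges. Its log2 fold change was 0.03, with a 95% confidence interval from -0.10 to 0.17.

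The sensor factors showed no change past the test in their own transcripts. Mlx, at chr11:101087277-101092207 on the plus strand, was 896, 789, 841 and 839 at normal and 804, 836, 928 and 1048 at high glucose. Mlxip, at chr5:123394798-123457932 on the plus strand, was 3825, 3562, 3661 and 3607 at normal and 3846, 3511, 3731 and 3507 at high glucose. For both genes the groups overlapped. The log2 fold change was 0.10 for Mlx (95% confidence interval -0.07 to 0.26) and -0.01 for Mlxip (-0.10 to 0.09). An RNA level says nothing about where the Mlxip protein was in the cell. Mlxip overlaps Gm42907, Gm42908 and Gm43813 on its own strand, whose reads could be split from it, and these averaged 79.9, 70.9 and 277 normalized counts.

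**Figure D2:**
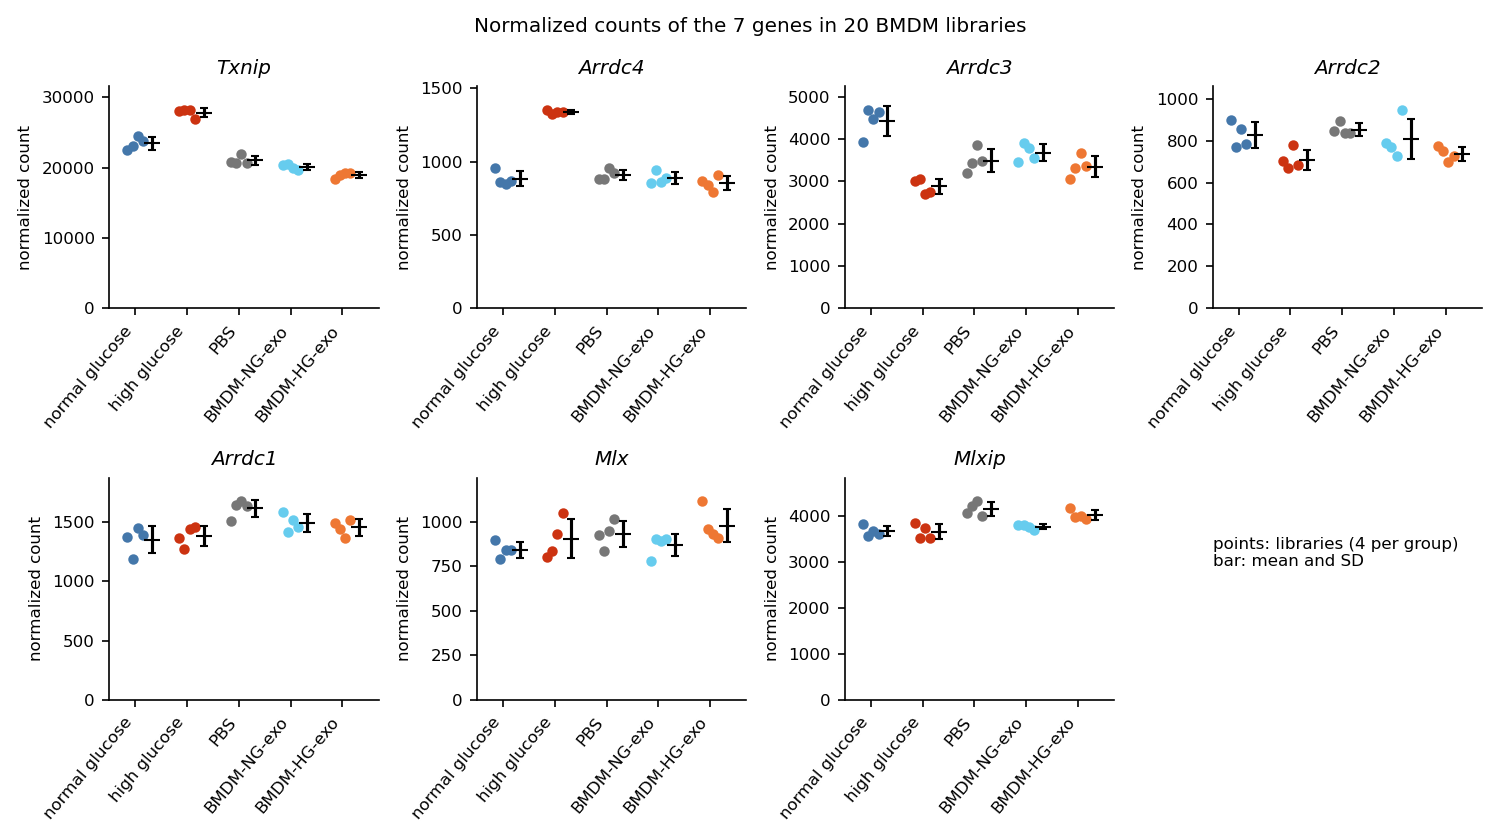
Normalized counts of the 7 genes, with 1 point per library, 4 libraries per group, and the group mean with its SD as a black bar; every axis starts at 0. The high glucose points stand above all other libraries for Txnip and Arrdc4, and the normal glucose points stand above all other libraries for Arrdc3.

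An exact two-sided permutation test of each member on its own could reach p = 0.0286 at the lowest with 4 against 4 libraries. Txnip, Arrdc3 and Arrdc4 were at that limit (exact p = 0.0286 each, adjusted p = 0.0667 over the 7 members), and Arrdc2 followed (exact p = 0.0571). The summed macrophage markers moved with the glucose groups, from 620993 to 695733 in normal glucose to 798427 to 868348 in high glucose. Most of that sum was Lyz2, and the markers did not move 1 way. By limma, 3 of 7 were higher (Lyz2 at a log2 fold change of 0.42, Csf1r at 0.35 and Adgre1 at 0.10), 2 were lower (Mertk at -0.40 and Cd68 at -0.15), and Itgam and Fcgr1 were not called. Their part in these results was not tested.

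No member passed the thresholds in any exosome comparison. In BMDM-HG-exo against BMDM-NG-exo, which asks what exosomes of high glucose cells add over those of normal glucose cells, 0 of 7 members were called by limma at an adjusted p below 0.05 and a log2 difference of 0.15 or more in either direction, the fold limit used for this experiment. Of all genes, 0.0139% were called, 2 in number, both lower, against 1 higher and 1 lower under quantile normalization and 22 with the date as a block. At an unadjusted p below 0.05 there were 4 members, beside 6.54% of all genes, and edgeR and DESeq2 also called 0. Groups did not overlap for 3 members (Txnip, Mlx and Mlxip), beside 3.86% of all genes.

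The normalized counts of Txnip in the exosome experiment were 20861, 20632, 21996 and 20629 with PBS, 20311, 20546, 19919 and 19660 with BMDM-NG-exo, and 18414, 18952, 19293 and 19248 with BMDM-HG-exo. None of these groups overlapped another. It follows that PBS was highest and BMDM-HG-exo lowest on each of the 4 dates named in the labels. The share of all genes with such a separation of the groups was not counted. The means were 21030 ± 654, 20109 ± 396 and 18977 ± 404 (SD, n = 4 each). The log2 fold change of BMDM-HG-exo against BMDM-NG-exo was -0.08 (SE 0.032, unadjusted p = 0.0119 and adjusted p = 0.621 by limma).

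Against PBS, Txnip with BMDM-HG-exo had a log2 fold change of -0.15 (SE 0.032, limma adjusted p = 0.00187), a value of -0.148 that fell just short of the fold limit. So 0 of 7 members were called by limma, edgeR or DESeq2, beside 4.84% of all genes. At an unadjusted p below 0.05 there were 3 members, beside 16.9% of all genes. Without a fold limit Txnip was the 1 member called, beside 5.4% of all genes. It was also called when PBS replicate 1, 2 or 4 or BMDM-HG-exo replicate 3 or 4 was left out, at log2 fold changes of -0.152 to -0.157. In a fit without a variance trend its adjusted p was 0.0729. Groups did not overlap for 2 members, Txnip and Arrdc2, beside 10% of all genes. Arrdc2 was 834.6 to 895 with PBS and 696 to 775 with BMDM-HG-exo, at a log2 fold change of -0.21 (SE 0.082, limma adjusted p = 0.155). Arrdc1, at 1511 to 1677 and 1368 to 1522 in overlapping ranges, had a log2 fold change of -0.15 (limma adjusted p = 0.171).

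In BMDM-NG-exo against PBS, 0 of 7 members were called by limma, edgeR or DESeq2, beside 3% of all genes, and 2 had an unadjusted p below 0.05, beside 13.5%. Groups did not overlap for the same 2, Mlxip and Txnip, beside 8.27% of all genes. Mlxip was 4053, 4209, 4308 and 4000 with PBS, 3801, 3789, 3762 and 3680 with BMDM-NG-exo, and 4157, 3969, 3990 and 3933 with BMDM-HG-exo. Mlxip was therefore lowest with BMDM-NG-exo on every date. Its log2 fold change in BMDM-NG-exo against PBS was -0.14 (SE 0.042, limma adjusted p = 0.0624), and the adjusted p fell to 0.0391 with the date as a block and to 0.00963 by DESeq2, at a fold still under the limit. Txnip had a log2 fold change of -0.06 in this comparison (SE 0.032, limma adjusted p = 0.366).

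In BMDM-HG-exo against BMDM-NG-exo, Mlxip (log2 fold change 0.09, SE 0.042, limma adjusted p = 0.712) and its partner Mlx (0.17, SE 0.080, limma adjusted p = 0.75) were higher in every library without overlap, but neither passed the test. Mlx was 776, 900, 893 and 901 with BMDM-NG-exo and 1113, 957, 932 and 906 with BMDM-HG-exo, and its difference was widest on the date of replicate 1 and near 0 on that of replicate 4. Arrdc3 and Arrdc2 were each lower with BMDM-HG-exo than with BMDM-NG-exo on all 4 dates, with overlapping ranges. The log2 fold change was -0.14 for Arrdc3 (SE 0.055, limma adjusted p = 0.635) and -0.13 for Arrdc2 (SE 0.082, limma adjusted p = 0.885). The share of all genes with the same sign on all dates between these groups was not counted. Arrdc4 had 852 to 944.6 and 796 to 912 in these groups and a log2 fold change of -0.05 (95% confidence interval -0.20 to 0.10).

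**Figure D3:**
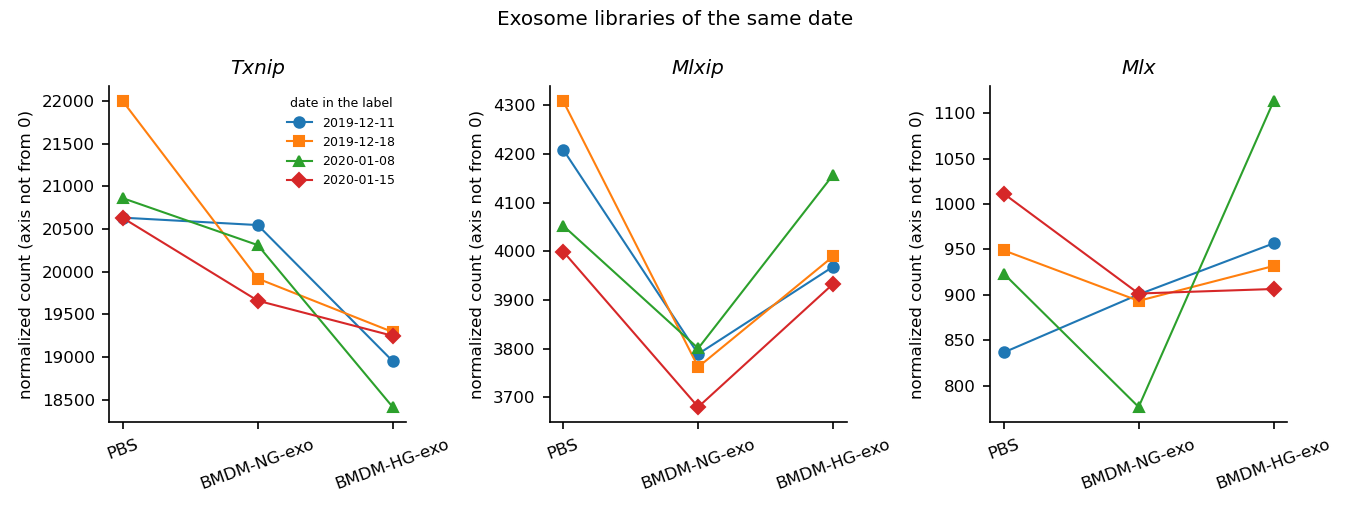
Normalized counts of Txnip, Mlxip and Mlx in the 12 exosome experiment libraries, with a line for each of the 4 dates in the labels; the axes do not start at 0. Txnip is highest with PBS and lowest with BMDM-HG-exo on all 4 dates, and Mlxip is lowest with BMDM-NG-exo on all 4. Both orders follow from groups that do not overlap.

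With PBS and BMDM-NG-exo taken as 1 control group of 8, the grouping of the study, 0 of 7 members were called by limma, edgeR or DESeq2, beside 0.201% of all genes, and 2 had an unadjusted p below 0.05, beside 10.5%. Txnip with BMDM-HG-exo stood below all 8 controls, the only member without overlap beside 1.17% of all genes, at a log2 fold change of -0.12 (SE 0.031, limma adjusted p = 0.0941). The exosome comparisons share libraries, so that their values are not independent. The summed macrophage markers were 785780 to 831767 with PBS, 710680 to 766373 with BMDM-NG-exo and 727963 to 751990 with BMDM-HG-exo. Against PBS, Adgre1, Csf1r, Itgam and Fcgr1 were the 4 of 7 markers called by limma with BMDM-NG-exo and also with BMDM-HG-exo, all lower. Their part in the Txnip values was not tested.

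**Figure D4:**
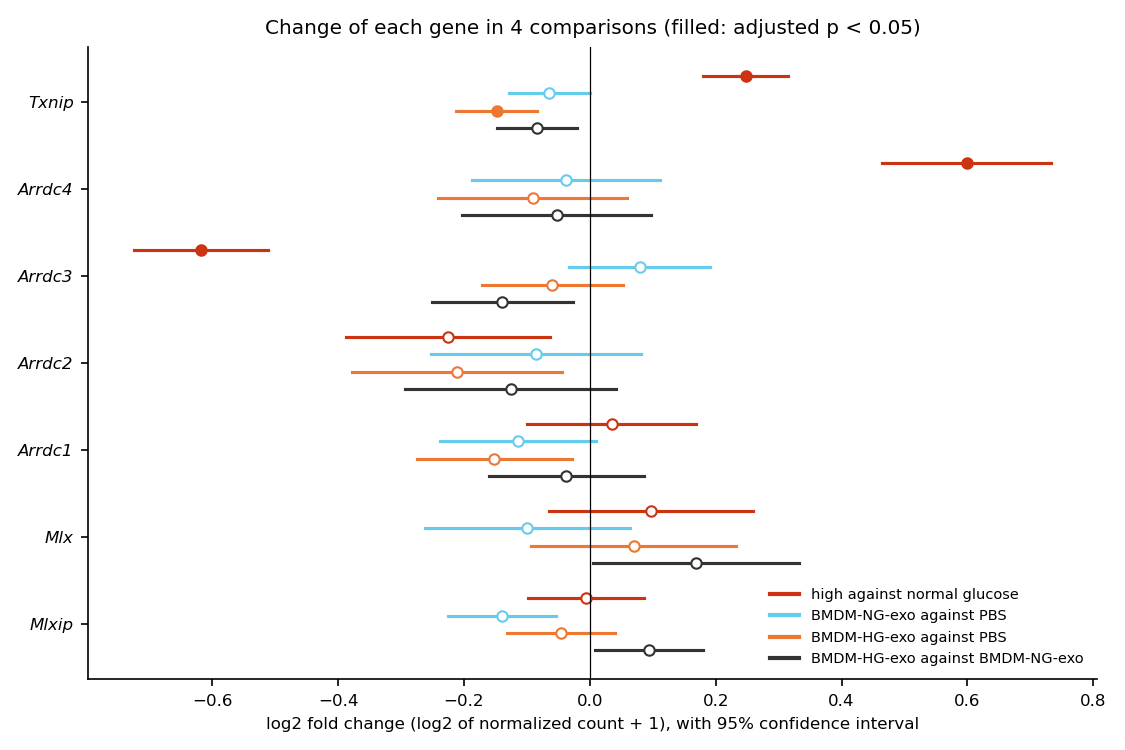
Log2 fold change of each gene in 4 comparisons, with the 95% confidence interval as a line; filled points had an adjusted p below 0.05 by limma. Txnip, Arrdc4 and Arrdc3 are filled for high against normal glucose at 0.25, 0.60 and -0.62, and Txnip is also filled for BMDM-HG-exo against PBS at -0.15, under the fold limit.

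Whether the glucose difference in the exposed cells was another one than the difference of BMDM-HG-exo from BMDM-NG-exo was tested as 1 contrast over all 20 libraries. It passed for 3 of 7 members, beside 4.74% of all genes. The difference of the log2 fold changes was 0.33 for Txnip (SE 0.045, limma adjusted p = 1.5e-06), 0.65 for Arrdc4 (SE 0.095, adjusted p = 6.5e-06) and -0.48 for Arrdc3 (SE 0.082, adjusted p = 0.000105). Experiment and kind of exposure cannot be told apart in this contrast. It reuses the libraries of the glucose and exosome comparisons above, so that it is not independent of them.

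Over all 5 groups, the order of the Txnip means ran from high glucose over normal glucose, PBS and BMDM-NG-exo down to BMDM-HG-exo, and no neighbours in that order overlapped. Each step was at the lowest p that 4 against 4 libraries allow (exact permutation p = 0.0286, adjusted p = 0.1 over 28 such steps of the 7 members). The order came from the observed means, so the steps were chosen from the values tested. The share of all genes that separate at every step of their own order was not counted. Where a step joins a glucose group to a group of the exosome experiment, for any member, experiment and exposure cannot be told apart. For Arrdc4, high glucose stood alone above PBS (910 ± 35.1), BMDM-NG-exo (887 ± 41.5), normal glucose (883 ± 50.5) and BMDM-HG-exo (855 ± 48.7), which overlapped as neighbours. For Arrdc3, normal glucose stood alone at the top and high glucose alone at the bottom, with BMDM-NG-exo (3680 ± 208), PBS (3488 ± 270.0) and BMDM-HG-exo (3345 ± 244) overlapping between them. For Mlxip, PBS (4142 ± 142) and BMDM-HG-exo (4012 ± 99.4) overlapped and stood above BMDM-NG-exo (3758 ± 54.3), normal glucose (3664 ± 115) and high glucose (3649 ± 168), and the gap lay below BMDM-HG-exo. Neighbours overlapped throughout for Arrdc1, whose means ran from 1354 ± 113 (normal glucose) to 1618 ± 73.3 (PBS), for Arrdc2, from 707 ± 49.7 (high glucose) to 852 ± 28.7 (PBS), and for Mlx, from 841 ± 43.5 (normal glucose) to 977 ± 93.0 (BMDM-HG-exo). All SDs are over 4 libraries.

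Across the 20 libraries the log2 values of Txnip and Arrdc4 had a Pearson correlation of 0.841, and with the group means removed the value was -0.105. The points share groups and size factors, and the correlation is given as a description. Of the 11717 genes averaging 50 or more normalized counts, those most like Txnip over the 20 libraries were Trim30a (0.931), Ddx60 (0.925) and Samd9l (0.916), all known as interferon-induced genes. With group means removed, they were Zfyve16 (0.831), Atp7a (0.798) and Il1b (0.796). For Arrdc4 they were Bmt2 (0.936), Ifitm3 (0.90) and Ddx24 (0.896), and with group means removed Ankrd39 (0.803), Pdk3 (0.779) and Gm43787 (0.777). For Arrdc3 they were Nabp1 (0.932), the macrophage marker Mertk (0.924) and Acsl3 (0.912), and with group means removed Picalm (0.855), Fam208a (0.842) and Rcbtb2 (0.838).

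Genes that work with the members were followed as lists in high against normal glucose. Over all genes tested the median log2 fold change was -0.00306, and 13.3% were called, 7.74% higher and 5.53% lower. The lists were chosen with earlier results of these data known, so their shares are a description and not a test of the lists. In the thioredoxin system, the partners of the protein that Txnip binds, 5 of 16 genes were higher and 0 lower by limma (31.2% called), with a median of 0.07, and 4 were higher under quantile normalization. Thioredoxin reductase Txnrd1 went from 7354 ± 291 to 11904 ± 507 normalized counts (SD, n = 4 each; log2 fold change 0.69, SE 0.039, limma adjusted p = 8.24e-16). The peroxidase Prdx1 (log2 fold change 0.48, limma adjusted p = 7.65e-12) and sulfiredoxin Srxn1 (0.46, adjusted p = 1.6e-08) were also higher, and so was thioredoxin itself, Txn1 (0.28, adjusted p = 0.00285), named after its value was seen.

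Among genes of glucose entry and glucose 6-phosphate, the metabolite that Mlxip responds to, 5 of 14 tested were higher and 1 lower (42.9% called), with a median of 0.11. The lysosomal sugar transporter Slc2a6 went from 1506 ± 148 to 2431 ± 132 (SD, n = 4 each; log2 fold change 0.69, SE 0.061, limma adjusted p = 1.45e-10). Glucose transporter Slc2a1 (log2 fold change 0.54, limma adjusted p = 1.66e-06) and glucose 6-phosphate dehydrogenase G6pdx (0.29, adjusted p = 5.93e-07) were higher as well. Hexokinase Hk3, named after its value was seen, was the 1 lower gene (-0.23, adjusted p = 0.000331).

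Of the known targets of the Mlx partners beside the members, 5 of 14 tested were higher and 1 lower (42.9% called), with a median of 0.14. Under quantile normalization 2 were higher and 1 lower. The transketolase Tkt went from 9376 ± 512 to 11842 ± 215 (SD, n = 4 each; log2 fold change 0.34, limma adjusted p = 3.21e-08). The transcription factor Klf10 (0.20, adjusted p = 0.0112; 0.0558 under quantile normalization) and malic enzyme Me1 (0.56, adjusted p = 0.0138) were higher. Gpd1, which was lower (-2.0, adjusted p = 0.0141) and named after its value was seen, averaged only 19.1 normalized counts.

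In the MAX network, the wider family of factors around Mlx, 0 of 8 tested genes were higher and 1 was lower by limma, with a median of -0.06. This share, 12.5%, was near that of all genes, 13.3%. The lower gene was Mxd4, a repressor that pairs with Max or Mlx (-0.16, adjusted p = 0.0055). Among other arrestins and NEDD4 family ligases, 1 of 17 was higher and 2 were lower, with a median of 0.0021, which was -0.03 under quantile normalization, with 0 higher and 3 lower. The share called, 17.6%, was also near that of all genes. The ligase adaptor Ndfip1 (-0.22, adjusted p = 0.0018) and the ligase Wwp1 (-0.14, adjusted p = 0.00627) were lower, and the beta-arrestin Arrb1 (0.13, adjusted p = 0.00884; 0.286 under quantile normalization) was higher. In BMDM-HG-exo against BMDM-NG-exo, 0 genes of any of these lists were called by limma. Against PBS, 3% of all genes were called with BMDM-NG-exo and 4.84% with BMDM-HG-exo. Of the 14 glucose entry genes, 1 was lower with BMDM-NG-exo (7.14% called), and 2 were lower and 1 higher with BMDM-HG-exo (21.4% called). Slc2a6 was among the lower ones in both (log2 fold change -0.36, limma adjusted p = 0.000392, and -0.39, adjusted p = 7.01e-05). The target list gave 1 higher gene of 14 in each (7.14% called). That gene was Bhlhe40 (0.46, limma adjusted p = 0.0026, and 0.44, adjusted p = 0.00224), a transcription repressor named after its values were seen. Of the 17 arrestins and ligases, Wwp1 was higher (0.15, limma adjusted p = 0.00516) and the beta-arrestin Arrb2 lower (-0.21, adjusted p = 0.000325) with BMDM-NG-exo, and Arrb2 alone was called, lower, with BMDM-HG-exo (-0.20, adjusted p = 0.000263). Arrb2 was named after its values were seen. The share of arrestins and ligases called was 11.8% with BMDM-NG-exo and 5.88% with BMDM-HG-exo. The thioredoxin system and the MAX network gave 0 calls in both by limma.

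**Figure D5:**
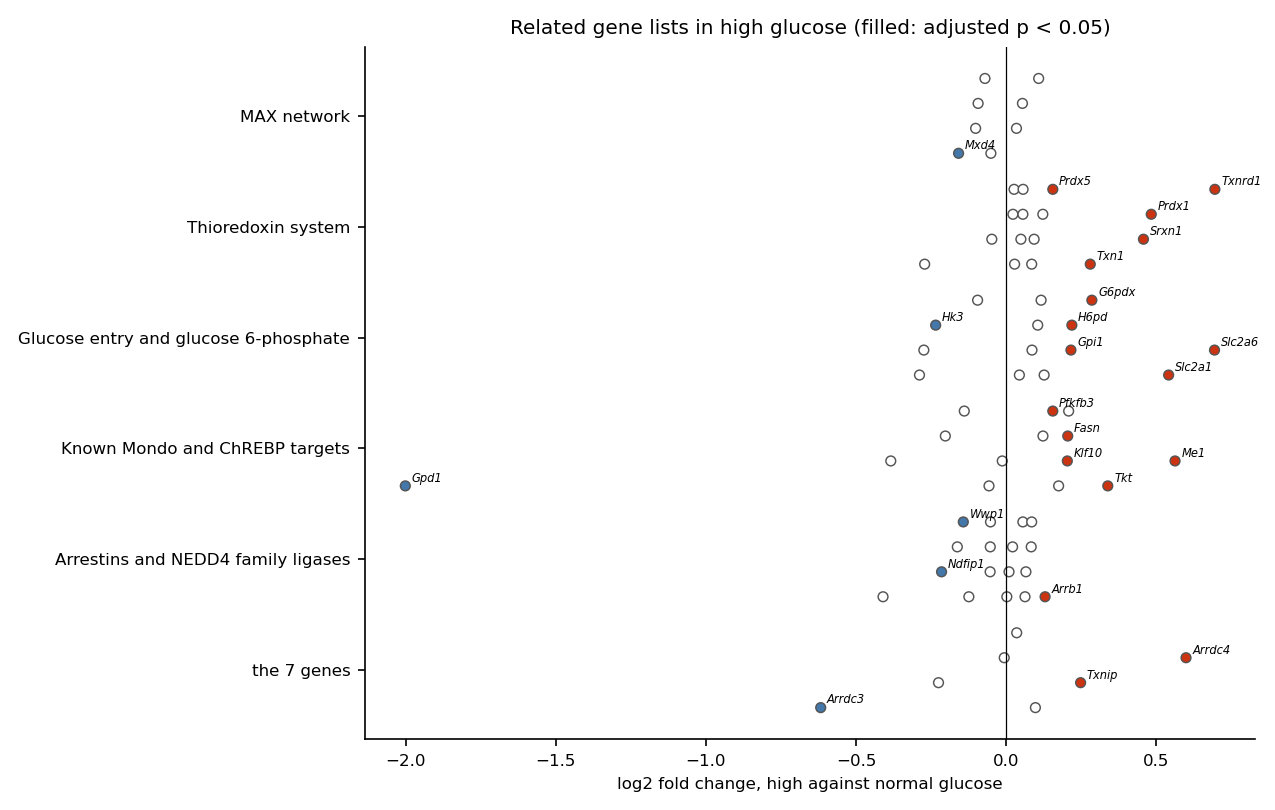
Log2 fold changes of the related lists and of the 7 genes in high against normal glucose, with 1 point per gene; red points were higher and blue points lower at an adjusted p below 0.05 by limma, and vertical offsets only separate points. Txnrd1 and Slc2a6 lie at 0.69, Arrdc4 at 0.60 and Arrdc3 at -0.62.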

How the data were processed

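Total RNA of 20 mouse BMDM samples was made into stranded libraries after ribosomal depletion. Per the study's methods and the submitters' processing notes, the authors trimmed reads with cutadapt, aligned them with STAR to GRCm38, counted them per gene with featureCounts, with read 2 as the sense strand, and divided the counts by DESeq2 median-ratio size factors. The gene annotation used for counting is not given in the sources used here. The deposited values are this signal, normalized counts. Dividing by each library's step gave back whole reads (within 0.01) for edgeR and DESeq2. Symbols came from GENCODE M21.

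Values were tested as log2(normalized count + 1) with limma 3.58.1 (variance trend, two-sided) in R 4.3.3 on genes with a mean of at least 10, with Benjamini-Hochberg adjustment over all of them. A fold change is on this scale. Glucose libraries were fitted alone, exosome libraries together, and the contrast between experiments over all 20. edgeR 4.0.16, DESeq2 1.42.0, other pseudocounts, filters and scalings, a replicate block and leaving out each library were alternatives. The scripts were tested on simulated data.

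The members and gene lists were chosen with earlier results of these data known. Named genes are the 7 members, up to 3 called genes of each list with the smallest p for high against normal glucose, and the 3 genes most correlated with each called member. The dates in the labels were taken as a pairing of the exosome libraries, although the labels do not say what libraries of a date share. For this experiment, the study states that its samples came from separate exosome preparations. Same-date deviations from the group means correlated at 0.012 on average over 12 pairs, against -0.004 for 36 other pairs. Little sign of a pairing was thus seen.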

Additional observations from a re-analysis of the deposited data

Results flagged for a closer look

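In 4 of 35 groups of 4 libraries, 1 library lay far from the other libraries of its group, by Dixon's criterion, where chance flags about 1 in 20. Txnip in high glucose replicate 6 was 26856 normalized counts, with the others at 28029 to 28195, and Txnip in PBS replicate 3 was 21996, with the others at 20629 to 20861. Arrdc2 in PBS replicate 2 was 895, above 834.6 to 843. Mlx in BMDM-NG-exo replicate 1 was 776, below 893 to 901. Without PBS replicate 3, the log2 fold change of Txnip in BMDM-HG-exo against PBS was -0.126 (limma adjusted p = 0.0143).

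The difference between high and normal glucose differed from the BMDM-HG-exo against BMDM-NG-exo difference for Txnip (0.33), Arrdc3 (-0.48) and Arrdc4 (0.65, difference of log2 fold changes, limma contrast). The contrast is not independent of the comparisons whose libraries it reuses.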

How the results depend on the processing

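The members called in high against normal glucose numbered 3 or 4 over 12 alternatives and 8 left-out libraries, with Txnip, Arrdc3 and Arrdc4 called in every one. Over the 12 alternatives the log2 fold change ran from 0.1855 to 0.2477 for Txnip, with the main fit at the upper end. It ran from 0.5589 to 0.599 for Arrdc4 and from -0.6554 to -0.5638 for Arrdc3. The contrast between the experiments gave 3 throughout its 9 alternatives and 20 left-out libraries. Its value for Txnip ran from 0.2337 to 0.3314 over the 9 alternatives, again with the main fit at the upper end. BMDM-HG-exo against BMDM-NG-exo, BMDM-NG-exo against PBS and the combined controls gave 0 members under every alternative and left-out library run. Members called in BMDM-HG-exo against PBS were 1 without a fold limit and 0 to 1 with a library left out. Uncalled values that changed sign in high against normal glucose with a library left out ran from -0.0247 to 0.0754 for Arrdc1 and from -0.0322 to 0.0143 for Mlxip.

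Counts over all genes moved more. Without a variance trend they were 654 in high against normal glucose, 95 in BMDM-NG-exo against PBS, 295 in BMDM-HG-exo against PBS, 1 in BMDM-HG-exo against BMDM-NG-exo, 1 against the combined controls and 324 in the contrast between experiments. In BMDM-HG-exo against BMDM-NG-exo the 2 calls became 5 with a pseudocount of 5, 5 with a mean of at least 50, 1 with TMM, 1 with edgeR, 25 with DESeq2 and 0 with all 20 libraries in 1 fit, and 1 to 7 with a library left out. The 29 against the combined controls became 47 with a pseudocount of 5, 19 with quantile normalization (9 higher and 10 lower, from 10 and 19) and 136 with DESeq2, and 1 to 204 with a library left out. Quantile normalization split the contrast between experiments into 322 higher and 290 lower, from 472 and 213. The cause of these shifts was not tested.

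With the replicate block, high against normal glucose gave 788 genes (library number, of which only 1 and 6 occur in both groups, with a correlation of 0.0071 over 2 pairs) and BMDM-HG-exo against BMDM-NG-exo gave 22 (date). The block changed no member's call. Each member was covered by at least 626 reads in each library, and the part of counting error in the calls was not tested. With 4 libraries a group, an exact test of a single gene cannot go below p = 0.0286.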
